A study of Homo sapiens with 9 samples.

Results

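β-Catenin mRNA and the mRNAs of 9 of its partners were followed in RNA that had been precipitated with guidance receptors. The 10 genes were chosen by name from the 42785 genes in the count files. They are CTNNB1 (β-catenin), CTNNA1 and CTNNA2 (α-catenins), CTNND1 and CTNND2 (δ-catenins), JUP (plakoglobin), CDH2 (N-cadherin), APC, AXIN1 and GSK3B. All 10 have a row in every file. The RNA came from SH-SY5Y cells, a human neuroblastoma line grown in serum-containing medium, and the labels name no treatment. Of the 9 libraries, 3 hold RNA precipitated with a mouse antibody against DCC (DCC-IP), 3 hold RNA precipitated with a rabbit antibody against Nrp1 (Nrp1-IP) and 3 hold RNA of the whole lysate (Input). DCC is a receptor for Netrin-1 and Nrp1 a receptor for Sema3A. The pulldowns differ in both receptor and antibody, and these cannot be told apart here. Libraries of a control antibody were not analysed here. The study's methods describe its experiments in general as repeated on independent biological material, while the labels do not say how the 3 libraries of a group were obtained, so p-values measure the spread between these libraries, whatever its source.

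β-Catenin has a pair of well-known roles. At adherens junctions it binds the cytoplasmic tail of cadherins and hands the force on to actin through α-catenin, while δ-catenins bind nearer the membrane and hold the cadherin at the surface. In the cytoplasm a destruction complex, built on the scaffolds APC and AXIN1 and containing the kinase GSK3B, marks free β-catenin for degradation unless a Wnt signal stops it, and β-catenin that escapes enters the nucleus and works with TCF/LEF factors. Plakoglobin is the closest relative of β-catenin and also serves desmosomes. In neurons, N-cadherin and β-catenin are known for their part in axon growth and synapse formation.

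The libraries held 8838296 to 11055895 reads on genes, and between 6652 and 12240 genes had at least 1 count. DCC-IP replicate 1 had the fewest detected genes, in spite of 11009502 reads on genes, and Nrp1-IP replicate 3 the most. The study amplified its cDNA with a protocol made for single cells, and losses of RNA before sequencing were not tested here. MAP1B alone took 40.3% to 52.1% of the gene counts in DCC-IP libraries and 1.58% to 2.44% in the others, so that levels of all other genes in DCC-IP depend on how a library is scaled. Of 14 sympathetic neuroblastoma markers, 13 had counts in Input, among them GATA3, while TH was at 0 in all libraries. Their summed level was 317 to 522 CPM in Input, 1070 to 1402 CPM in Nrp1-IP and 1306 to 4118 CPM in DCC-IP. Most of it was ISL1, at 230.4 to 372 CPM in Input, 1004 to 1333 CPM with Nrp1 and 1210 to 3970 CPM with DCC. Most markers that could be tested lay below Input, 4 of 7 in DCC-IP (median log2 fold change -0.90) and 7 of 9 in Nrp1-IP (median -1.04). Their part in the results that follow was not tested. Of 8 markers of other cell types with a row, only COL1A1 and EPCAM had any count, and their sum stayed at or below 4.77 CPM. DCC mRNA had 0 counts in all 9 libraries, which allows up to 0.339 CPM in the shallowest library.

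CTNNB1 took most of the reads on the 10 genes and was the only one of them that differed between groups by the test used. Its reads made up 0.178%, 0.191% and 0.102% of the gene counts of DCC-IP replicates 1 to 3. For Nrp1-IP the shares were 0.0255%, 0.0238% and 0.0232%, and Input held 0.0531%, 0.0663% and 0.0612%. Every DCC-IP library lay above every Input library on this scale, and every Input library above every Nrp1-IP library. By count, CTNNB1 ranked between 47 and 117 among the genes of the DCC-IP libraries, between 250 and 299 in Input and between 452 and 477 in Nrp1-IP. These are shares of a library, so more CTNNB1 RNA on the beads and less of other RNA cannot be told apart. The same holds in the lysate, where RNA per cell and the share of cells that hold it cannot be told apart either.

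**Figure D1:**
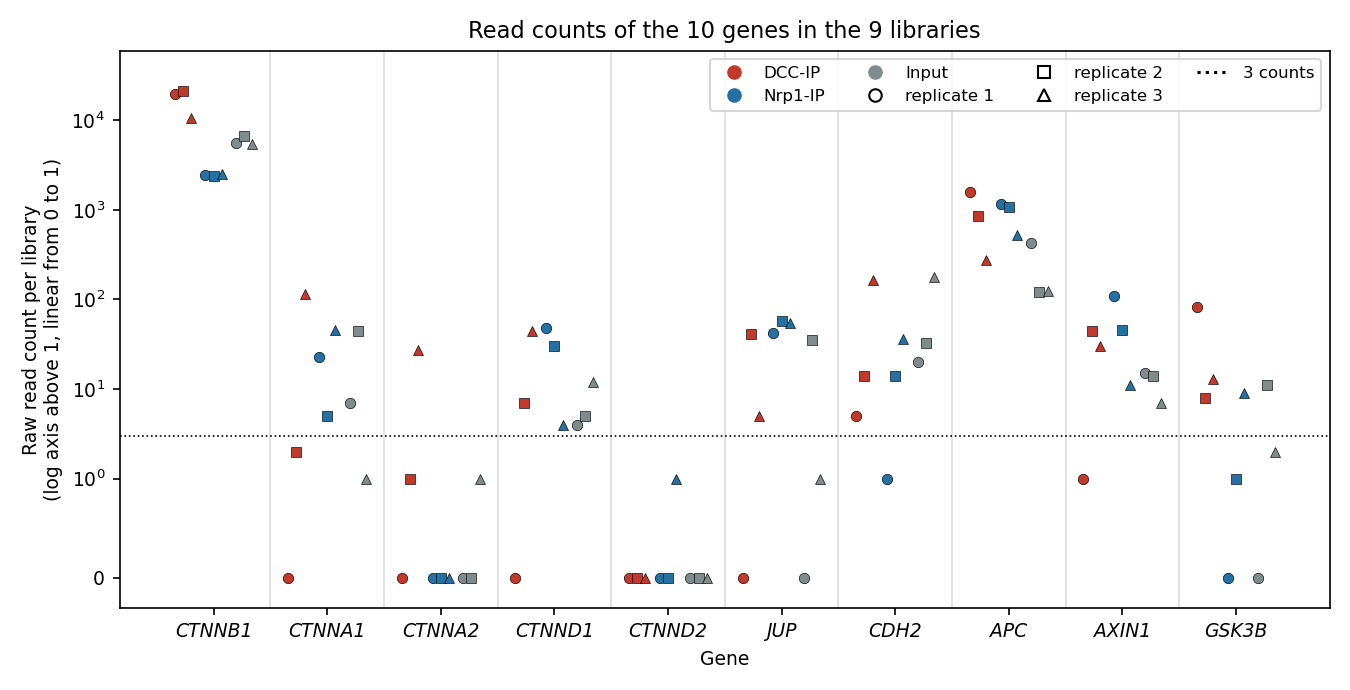
Raw read counts per library (y axis, logarithmic above 1) of the 10 genes (x axis), coloured by group, with a marker shape for each replicate and a dotted line at 3 counts. CTNNB1 lies between 2390 and 21165 counts and APC between 120 and 1605, while the other 8 genes stay under 200 counts and are often at 0.

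Groups were tested in edgeR by quasi-likelihood F-tests after TMM scaling, a method that sets the bulk of the genes equal between libraries, and a gene was called where its FDR, the p-value adjusted over all genes tested (Benjamini-Hochberg), was under 0.05. Of the 10 genes, 7 passed the filter on low counts between the receptors, 5 between DCC-IP and Input, and 7 between Nrp1-IP and Input. Between the receptors, 1 of the 7 was called, CTNNB1, where 3.65% of all tested genes were called. Against Input, CTNNB1 was the 1 gene of 7 called in Nrp1-IP, where 4.97% of all genes were called, and 0 of 5 were called in DCC-IP, where 4.98% of all genes were called. For a list of this size these counts lie near the background, so they say nothing about the list as a group. In DCC-IP against Input, 0 of the 5 passed in edgeR and 0 in DESeq2, and CTNNB1 was the only one with an unadjusted p under 0.05 in edgeR. Same-numbered libraries of DCC-IP and Input deviated together, though Input replicate 1 did so more with DCC-IP replicate 2 (r = 0.136 against 0.117). With the replicate number as a block 1 of the 5 was called, CTNNB1, where 11.5% of all genes were called (715 of 6223).

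By position alone, CTNNB1 and JUP were the 2 genes of 7 whose receptor libraries did not overlap in CPM, where 26.5% of all genes tested did not (10.9% lower and 15.6% higher in Nrp1-IP). CTNNB1 was the 1 gene of 7 that did not overlap between Nrp1-IP and Input, where 31.5% did not (13.8% lower and 17.7% higher). Between DCC-IP and Input the count was 0 of 5, where 33.3% did not (15.2% higher and 18.1% lower). In the calls by FDR the same directions had 2.56% of genes higher and 1.09% lower between the receptors, 1.46% higher and 3.52% lower in DCC-IP over Input, and 1.94% higher and 3.03% lower in Nrp1-IP over Input.

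In CPM scaled by TMM, CTNNB1 stood at 2220, 1694 and 729 for DCC-IP, at 731, 795 and 680 for Input and at 231, 220 and 191 for Nrp1-IP. The order was DCC-IP, Input, Nrp1-IP, but here DCC-IP replicate 3 fell inside the range of Input, so the top pair overlapped. Nrp1-IP carried 8.04-fold less CTNNB1 than DCC-IP (log2 fold change -3.01, SE 0.44, FDR = 0.00631) and 3.24-fold less than Input (log2 fold change -1.70, SE 0.25, FDR = 0.0167). DCC-IP stood 2.20-fold above Input (log2 fold change 1.14, SE 0.38, FDR = 0.119), short of the threshold. With the replicate block this last change was 1.06 and passed (FDR = 0.0427).

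How far CTNNB1 in DCC-IP stood above Input rested on the scaling. By library size alone, DCC-IP averaged 1571 ± 485 CPM, Input 602 ± 66.9 CPM and Nrp1-IP 242 ± 11.8 CPM (SD, n = 3 each). With MAP1B left out of the library size, DCC-IP averaged 3080 ± 1214 CPM, Input 615 ± 68.5 CPM and Nrp1-IP 247 ± 13.0 CPM (SD, n = 3 each). On both of these scales no DCC-IP library overlapped an Input library. The log2 fold change of DCC-IP over Input ran from 1.06 to 2.33 over the settings that kept every library, and was called in 2 of 9 of them. Part of that range is a shift of all genes, whose median change was 0.16 with TMM and 1.37 with library sizes that leave out MAP1B. Relative to the median of all genes, CTNNB1 stood at 0.98 with TMM and at 0.96 on the other scale, with a range of 0.90 to 1.69 over the 9 settings, the highest without a filter on low counts. Between the receptors the relative change stayed between -3.003 and -2.60 in all 9 settings, and CTNNB1 was called in each.

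Single libraries also mattered. Without Nrp1-IP replicate 1 the change between the receptors was -2.92 with an FDR of 0.0773, and in the other 5 fits with a library left out it was called. Against Input, the call in Nrp1-IP was lost without Nrp1-IP replicate 1, 2 or 3 (FDR = 0.127, 0.146 and 0.103), while the change stayed between -1.90 and -1.62. Without DCC-IP replicate 3 the change of DCC-IP over Input rose to 1.85 (FDR = 0.0596), over 1.5 times its value with all libraries. CTNNB1 varied by 48.9% (CV, n = 3) among DCC-IP libraries, by 7.86% among those of Input and by 9.82% among those of Nrp1-IP. The median CV of genes at a like level was 38.1% for DCC-IP and 27.6% for Input (500 to 5000 CPM) and 20.2% for Nrp1-IP (50 to 500 CPM).

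**Figure D2:**
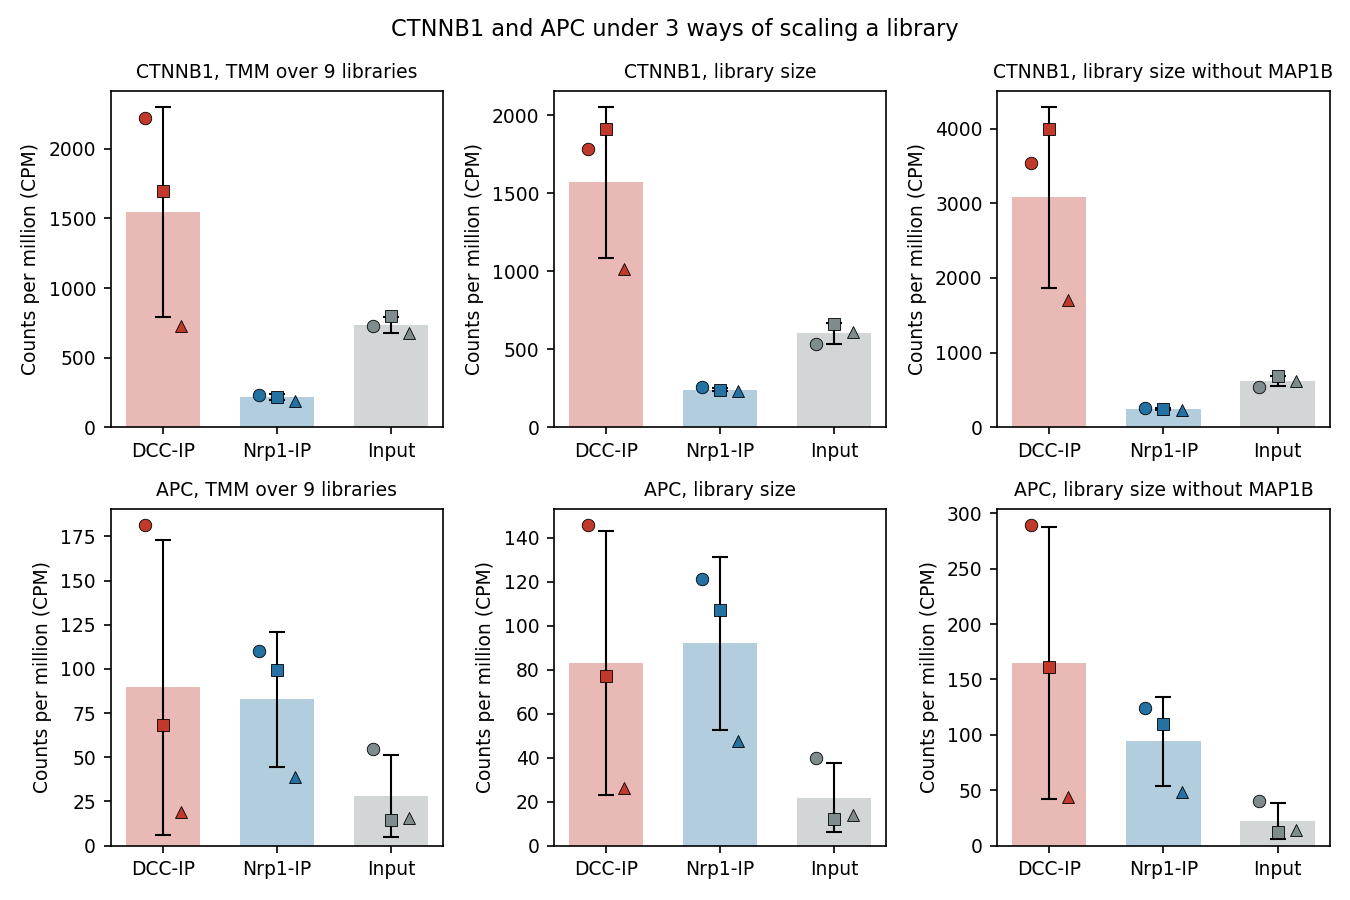
CPM of CTNNB1 (top) and APC (bottom) by group on 3 scales, with bars for the mean of 3 libraries, error bars for the SD and points for the libraries (circle, square and triangle for replicates 1, 2 and 3). CTNNB1 in Nrp1-IP lies below all other libraries on each scale, while DCC-IP replicate 3 meets the range of Input only with TMM, and APC overlaps between the receptors on each scale.

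APC, the large scaffold of the destruction complex, was the other gene of the 10 with at least 100 reads in each library. DCC-IP held 1605, 853 and 274 reads of it, Nrp1-IP 1177, 1078 and 519, and Input 425, 120 and 123. Replicate 1 was the highest library in all 3 groups. The TMM-scaled mean was 28.2 ± 23.1 CPM for Input, 89.6 ± 83.3 CPM for DCC-IP and 82.8 ± 38.3 CPM for Nrp1-IP (SD, n = 3 each). The receptors overlapped, with a log2 fold change of -0.22 between them (SE 0.73, FDR = 0.938) whose sign turned with MAP1B removed and by library size alone. Relative to Input the log2 fold change was 1.66 for DCC-IP (SE 0.86, FDR = 0.304) and 1.60 for Nrp1-IP (SE 0.68, FDR = 0.225), neither past the threshold. Without a filter on low counts the change in Nrp1-IP passed (1.57, FDR = 0.0367), as 1 of 3 genes of the 10 called in that setting, where 5.36% of all genes were called.

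A ratio of 2 genes counted in the same library needs no scaling, and that of CTNNB1 to APC was lowest in Nrp1-IP. Summed over 3 libraries, there were 18.8 reads of CTNNB1 for each read of APC in DCC-IP, 26.6 in Input and 2.67 in Nrp1-IP. Per library, with 0.5 added to each count, the log2 ratio averaged 4.50 ± 0.83 in DCC-IP, 4.99 ± 1.10 in Input and 1.50 ± 0.68 in Nrp1-IP (SD, n = 3 each). All 3 Nrp1-IP libraries lay below all libraries of the other groups. The difference was -2.999 from DCC-IP and -3.49 from Input (two-sided exact permutation tests, p = 0.1 for each, the smallest that 3 against 3 allows, and 0.3 after adjustment over 27 ratio tests). DCC-IP and Input differed by -0.49, less than the SD of either group (exact permutation p = 0.5, adjusted 0.711). As a share of the reads on all 10 genes, CTNNB1 held 92.1% to 95.6% in DCC-IP, 92.3% to 96.2% in Input and 63.8% to 78.9% in Nrp1-IP. APC held 16.1% to 30.4% in Nrp1-IP and at most 7.52% elsewhere. The widest Wilson 95% interval of a CTNNB1 share, 64.4% to 67.5% in Nrp1-IP replicate 2, covers counting error only and is narrower than the spread between the Nrp1-IP replicates.

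**Figure D3:**
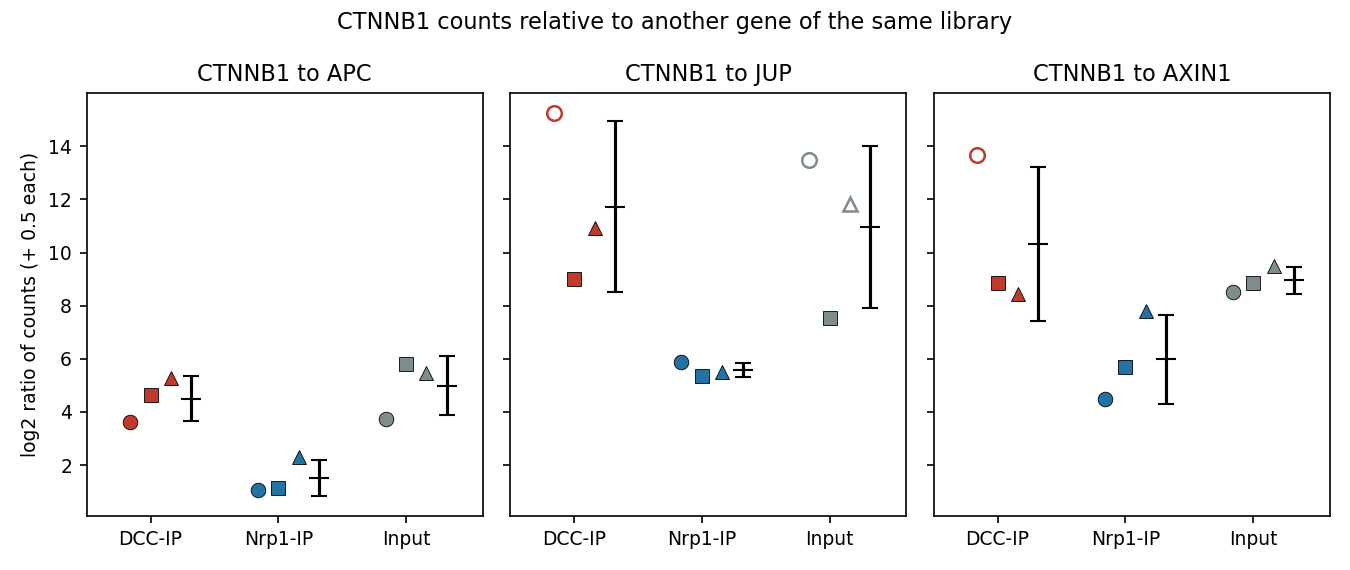
Log2 ratio of CTNNB1 counts to those of APC, JUP and AXIN1 in the same library (y axis, 0.5 added to each count) by group, with points for libraries (shapes as replicates 1, 2 and 3), open points where the partner had 3 counts or fewer, and mean ± SD beside them. Nrp1-IP lies below DCC-IP and Input in all 3 panels, at a mean of 1.50 for APC against 4.50 and 4.99. The panels share the CTNNB1 count, and open points depend strongly on the 0.5 added.

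AXIN1, the scaffold that limits the amount of destruction complex, had few reads in every group. Its reads numbered 1, 45 and 30 for DCC-IP, 110, 46 and 11 for Nrp1-IP and 15, 14 and 7 for Input. The groups overlapped, and none of its 3 log2 fold changes passed (1.13 between the receptors, 0.61 for DCC-IP and 1.87 for Nrp1-IP against Input, with FDR = 0.783, 0.853 and 0.320). CTNNB1 per AXIN1 read was lowest in Nrp1-IP, at 44.3 over the group against 676 in DCC-IP and 493 in Input. The Nrp1-IP libraries did not overlap those of the other groups (exact permutation p = 0.1 for both, adjusted 0.3). All of these ratios, that to APC included, share the CTNNB1 count, so they are not separate results. The ratio to CTNND2, which had a single read, also set Nrp1-IP apart from both groups without overlap. GSK3B, the kinase that phosphorylates β-catenin, had 82, 8 and 13 reads with DCC, 0, 1 and 9 with Nrp1 and 0, 11 and 2 in the lysate. DCC-IP replicate 1 held most of its reads. GSK3B entered only the test of DCC-IP against Input, through its counts in DCC-IP, where it did not pass (log2 fold change 2.65, SE 1.80, FDR = 0.455).

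JUP, which can stand in for β-catenin at junctions, had 0, 41 and 5 reads with DCC, 42, 58 and 55 with Nrp1 and 0, 35 and 1 in the lysate. The 3 Nrp1-IP libraries were alike, with a CV of 17.1% against 13.9% from counting alone, while the other groups held both libraries at or near 0 and libraries with over 30 reads. Each Nrp1-IP library lay above each DCC-IP library, as it did for 15.6% of all tested genes, and the log2 fold change was 1.56 (SE 1.56, FDR = 0.716). JUP passed the filter on low counts through its Nrp1-IP libraries, so the position of its groups is no support for a difference. Input replicate 2, at 4.17 CPM, lay inside the Nrp1-IP range of 3.93 to 5.34 CPM. CTNNB1 reads per JUP read numbered 47.8 in Nrp1-IP, 1116 in DCC-IP and 493 in Input. The log2 ratios of Nrp1-IP lay below those of both other groups (exact permutation p = 0.1 for both, adjusted 0.3).

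CTNNA1, the α-catenin of most tissues, had 0, 2 and 116 reads with DCC, 23, 5 and 46 with Nrp1 and 7, 44 and 1 in the lysate. A single library thus held nearly all of its DCC-IP reads, and the fitted change between the receptors of -0.56 (SE 1.79, FDR = 0.937) turned to 4.50 without DCC-IP replicate 3 (FDR = 0.243). Relative to Input it was 0.15 in Nrp1-IP (SE 1.27, FDR = 0.966). CTNNA2, the neural α-catenin, had 27 reads in DCC-IP replicate 3, 1 in DCC-IP replicate 2, 1 in Input replicate 3 and none elsewhere. CTNND1 (p120-catenin) had 0, 7 and 45 reads with DCC, 48, 30 and 4 with Nrp1 and 4, 5 and 12 in the lysate, with overlap in all comparisons. Its log2 fold change was 0.87 between the receptors (SE 1.67) and 1.57 for Nrp1-IP over Input (SE 1.16), with FDR = 0.871 and 0.490. CTNND2, the neural δ-catenin, had a single read, in Nrp1-IP replicate 3, and its count of 0 elsewhere allows up to 0.339 CPM in the shallowest library. CTNNA2 and CTNND2 were not tested in any comparison, and for CTNND2 no difference was detectable from a single read. CTNNA1, CTNND1 and JUP did not pass the filter on low counts for DCC-IP over Input and were not tested there.

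CDH2, the cadherin whose tail β-catenin binds in neurons, had 5, 14 and 164 reads with DCC, 1, 14 and 36 with Nrp1 and 20, 33 and 178 in the lysate. Replicate 3 was the highest library in each group. All 3 groups overlapped. The log2 fold change was -1.79 between the receptors (SE 1.55), -0.86 for DCC-IP over Input (SE 1.43) and -2.79 for Nrp1-IP over Input (SE 1.24), with FDR = 0.657, 0.783 and 0.243. The last passed without a filter on low counts (-2.94, FDR = 0.0301), and without DCC-IP replicate 3 the first of them changed sign (0.86).

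**Figure D4:**
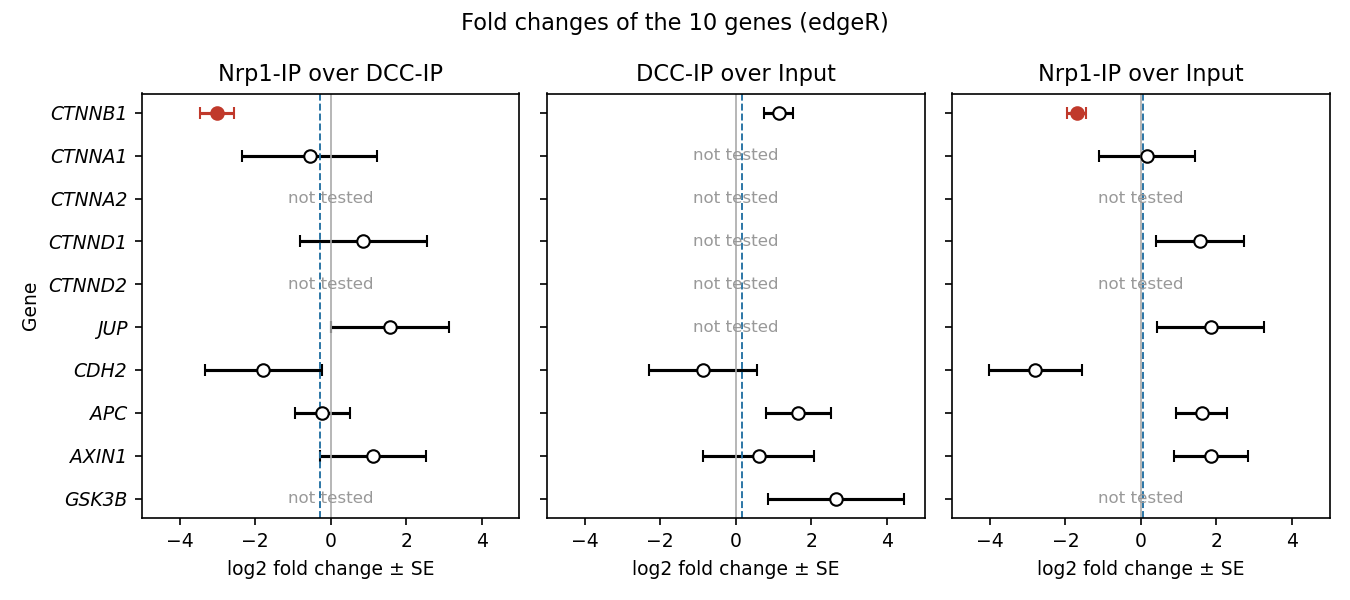
Log2 fold changes (x axis) with standard errors for the 10 genes (y axis) in the 3 comparisons, filled red where the FDR was under 0.05, with a dashed line at the median of all tested genes. CTNNB1 is the only filled point, at -3.01 and -1.70, and its error bars are the shortest in each panel.

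The 8 genes other than CTNNB1 and APC had under 100 reads in 68 of 72 values. Of 90 values over all 10 genes and 9 libraries, 20 were 0 and 60 exceeded the floor of 3 counts. DCC-IP replicate 3 held 66.0% of the 606 reads that these 8 genes had in DCC-IP, and DCC-IP replicate 1 held 14.5% of them while 5 of the 10 genes were at 0 there. Such gaps were common at this level. Among genes with a mean of 0.5 to 5 CPM, 55.9% were at 0 in at least 1 library of DCC-IP, against 27.8% for Nrp1-IP and 41.4% for Input, and their median CV was 115%, 77.1% and 92.5%. The dispersion edgeR assigned to CTNNB1 between the receptors corresponded to a biological coefficient of variation of 0.445, at percentile 4.92 of the genes tested, whereas those of CTNNA1, CTNND1, JUP, CDH2 and AXIN1 lay between 1.13 and 1.43, where the common value was 0.928. For these partners a missing call does not show that the groups were alike, since their standard errors ran from 1.40 to 1.79 between the receptors.

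The other genes of the junction and of Wnt signalling were taken from 5 lists with 103 genes. Few could be tested, 40 between the receptors, 33 for DCC-IP over Input and 35 for Nrp1-IP over Input. Between the receptors 1 gene was called higher and 1 lower in Nrp1-IP (2.56% and 1.09% of all genes), and against Input 2 were called lower in each pulldown (3.52% of all genes for DCC-IP and 3.03% for Nrp1-IP). With the replicate block 5 were called lower in DCC-IP against Input, PPP2R5C, CTBP1, CSNK1A1, PPP2R5E and TLE3, where 7.67% of all genes were called lower. Of these, PPP2R5E (-1.16, FDR = 0.0160) and TLE3 (-1.45, FDR = 0.00636) are a further PP2A subunit and a corepressor of TCF factors. The median log2 fold change of the listed genes was -0.95 between the receptors, against -0.27 for all genes. It was -0.06 against 0.16 in DCC-IP over Input and 0.36 against 0.06 in Nrp1-IP over Input. By list, the tested genes between the receptors numbered 3 of 22 cadherins and nectins, 9 of 19 junction adaptors, 13 of 24 genes around the destruction complex, 7 of 19 genes of Wnt reception and 8 of 19 nuclear partners.

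CSNK1A1, the casein kinase that primes β-catenin for GSK3B, ran opposite to CTNNB1 between the receptors. It stood at 497, 203 and 222 CPM with DCC, at 1331, 1446 and 1345 CPM with Nrp1 and at 1439, 1198 and 653 CPM in the lysate. The receptors did not overlap (log2 fold change 2.05, SE 0.37, FDR = 0.0174), and the change was called in 2 of 6 fits with a library left out, the FDR being 0.0684, 0.137, 0.107 and 0.0517 without DCC-IP replicate 2 and without Nrp1-IP replicates 1, 2 and 3. DCC-IP lay below Input without passing (log2 fold change -1.78, FDR = 0.0518), and it passed with the replicate block (-1.76, FDR = 0.00716). AXIN2, the paralogue of AXIN1, and the E3 ligase RNF146, which removes axins, did not pass in any comparison.

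NECTIN4, listed under the older symbol PVRL4, was the only tested adhesion receptor that was called. Without a stated strand setting, reads of an overlapping gene and of NECTIN4 cannot be told apart in these counts. It had 791, 423 and 1143 reads with DCC, 174, 119 and 138 with Nrp1 and 208, 106 and 281 in the lysate. The receptors did not overlap (log2 fold change -2.54, SE 0.56, FDR = 0.0424). The call held in 1 of 6 fits with a library left out, the 1 without DCC-IP replicate 2, with an FDR of 0.0891 to 0.299 in the others, and it was lost with RLE size factors, with all 9 libraries in the fit, with MAP1B removed and by library size alone (FDR = 0.0628, 0.0564, 0.0595 and 0.0611). The tight junction scaffold TJP1 stood at -2.24 between the receptors with an FDR of 0.0580.

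PPP2R5C, a regulatory subunit of the phosphatase PP2A, and CTBP1, a nuclear corepressor, were the called genes against Input. PPP2R5C had 2387, 3357 and 2838 reads with DCC, 3768, 4628 and 4881 with Nrp1 and 20384, 17417 and 11842 in the lysate. It was lower than Input in DCC-IP (log2 fold change -2.96, SE 0.36, FDR = 0.00520) and also in Nrp1-IP (-2.35, SE 0.29, FDR = 0.0113). CTBP1 was lower than Input in DCC-IP (-2.95, SE 0.54, FDR = 0.0198), a call lost with MAP1B removed (FDR = 0.0673), and also in Nrp1-IP (-4.03, SE 0.55, FDR = 0.0129). Both comparisons share the Input libraries. With a library left out, the FDR of PPP2R5C was over 0.05 without DCC-IP replicates 1 and 2 and without any of the Nrp1-IP replicates. That of CTBP1 was over 0.05 without any of the DCC-IP replicates, without Input replicate 1 and without any of the Nrp1-IP replicates, with 0.160 as its highest value.

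**Figure D5:**
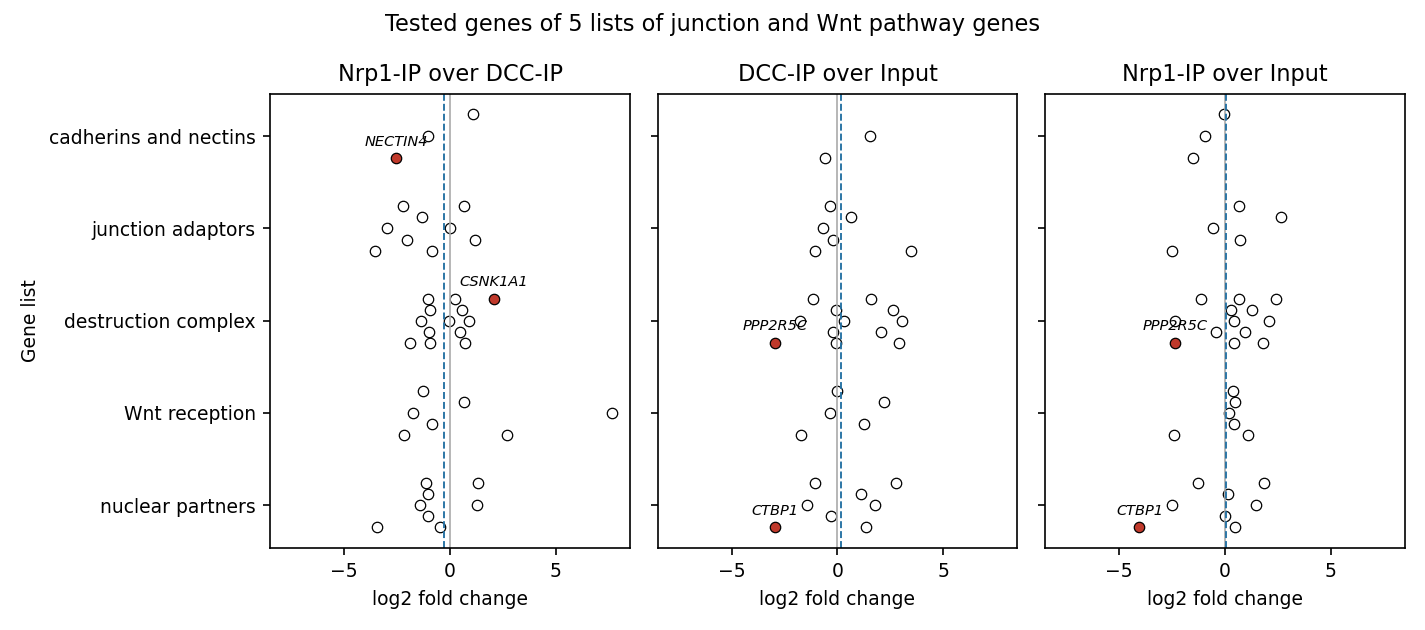
Log2 fold changes (x axis) of the tested genes of 5 lists (y axis) in the 3 comparisons, red and named where the FDR was under 0.05, with a dashed line at the median of all tested genes and a vertical offset within a list that has no meaning. The red points are NECTIN4 and CSNK1A1 between the receptors, at -2.54 and 2.05, and PPP2R5C and CTBP1 against Input. Points farther out that did not pass include DVL3 at 7.63 and PKP2 at -3.54 between the receptors. DVL3 had 0 reads in each DCC-IP library and 25, 28 and 23 in Nrp1-IP, through which it passed the filter. The size of its change is thus not a measured fold. PKP2 had 147, 108 and 2 reads in DCC-IP and 10, 0 and 19 in Nrp1-IP.

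The genes whose log2 CPM followed CTNNB1 most closely over the 9 libraries came from outside these lists. Few genes of these lists reached the mean of 50 CPM needed to enter this search. Their absence from the top was thus largely fixed in advance and says nothing about the lists. Among 1105 genes with a mean of at least 50 CPM, Pearson's r was 0.962 for GOLIM4, a Golgi membrane protein, 0.949 for BRWD1, 0.947 for AF129408.17, 0.946 for TLK1, a kinase of chromatin assembly, and 0.934 for FANCD2, a DNA repair protein. GOLIM4 averaged 1228 CPM with DCC, 721 CPM in the lysate and 135 CPM with Nrp1. Its order of groups is that of CTNNB1, which follows from its choice by correlation and is no separate result. The 9 points share libraries, depth and 3 groups. Among the partners of β-catenin that could be compared, r with CTNNB1 ran from -0.559 for JUP to 0.634 for GSK3B, and it was 0.0298 for APC. The minimum of 50 CPM was not applied to these partners. JUP and GSK3B had few reads and were at 0 in some libraries. Their r thus depends on the prior count of 2, and no conclusion is drawn from it.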

How the data were processed

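The deposited values are raw counts per gene symbol, made by the authors with HISAT2 2.1.0 (alignment) and HTSeq 0.11.0 (counting). The submitters' processing notes name hg19. Gene annotation and strand setting are not given in the sources used here, so a gene and an antisense neighbour may share reads. The 5 HTSeq summary lines were left out.

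Pairs of groups were fitted on their 6 libraries with edgeR 4.0.16 (R 4.3.3), using filterByExpr at a minimum count of 10, TMM, glmQLFit and glmQLFTest, with Benjamini-Hochberg adjustment (FDR) over all genes tested and a threshold of 0.05. The standard error (SE) is the log2 fold change over the square root of F. Printed CPM use TMM over 9 libraries. The floor was 3 counts, 0.271 to 0.339 CPM, and log2 CPM used a prior count of 2. Shares have Wilson 95% intervals, and floors and intervals cover counting error only.

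The 10 genes, the 5 lists and the tests were chosen with earlier results of these data known. Named genes are the 10, list genes called in a comparison, the receptors, MAP1B, and the 5 genes most like CTNNB1, while TJP1, AXIN2, RNF146, PPP2R5E, TLE3 and TCF7L2 were named after their values were seen. Symbols of all 10 were found in RefSeq's gene list.

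Deviations from the group means over 7628 genes correlated between same-numbered libraries of DCC-IP and Input by 0.117, 0.187 and 0.421, so the numbers were taken to pair these samples. Input replicate 1 correlated more with DCC-IP replicate 2 (0.136), so this pairing is uncertain. The other comparisons each had a pair under 0.1 (0.0989 and -0.00436). Between the receptors that pair missed narrowly and each library correlated best with its own number, so whether the receptor libraries are paired is uncertain too. Alternatives were RLE size factors, no filter, DESeq2 1.42.0, all 9 libraries in one fit, the replicate block, MAP1B removed, each library left out and, chosen after the data were seen, library size with or without MAP1B. The fits were also run on simulated data, whose outcome is not reported here and backs none of the calls. Figures were drawn with matplotlib 3.10.9.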

Additional observations from a re-analysis of the deposited data

Results flagged for a closer look

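CTNNB1 was flagged because the signs of its change against Input differed between the pulldowns. How many of all genes had such opposite signs was not counted, so this alone does not set CTNNB1 apart. Nrp1-IP lay below Input (-1.70 on the log2 scale, FDR = 0.0167 in edgeR), while in DCC-IP the change was 1.14, short of the threshold (FDR = 0.119), with an overlap of 1 DCC-IP library with Input. Compared with each other in a fit of their own, Nrp1-IP lay below DCC-IP (-3.01, FDR = 0.00631), with all 3 DCC-IP libraries above all 3 Nrp1-IP libraries. In the fit of all 9 libraries, where the effects against Input (-1.78 and 1.07) subtract to their difference, that difference was -2.85 (FDR = 0.00213).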

How the results depend on the processing

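Of 266 values of the 10 genes under alternatives, 240 kept both their direction and their side of the threshold. CTNNB1 kept its direction in each. For DCC-IP over Input it passed with the replicate block (1.06) and with library sizes without MAP1B (2.33), which makes 1 gene of the 10 called in each of these settings. Without a filter, 3 of the 10 were called in Nrp1-IP over Input, where 882 of 16456 genes were called. With a library left out, CTNNB1 lay between -3.02 and -2.47 for Nrp1-IP over DCC-IP, between 0.94 and 1.85 for DCC-IP over Input and between -1.90 and -1.62 for Nrp1-IP over Input, and the number of the 10 called ran from 0 to 1 in the comparisons that involve Nrp1-IP.

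The sign of APC between the receptors turned with the replicate block (0.13), with MAP1B removed (0.15) and by library size (0.15), and without DCC-IP replicate 1 (0.95) or Nrp1-IP replicate 3 (0.15). That of CTNNA1 turned with the block (1.41) and without DCC-IP replicate 3 (4.50), and over Input in Nrp1-IP it turned with RLE (-0.12), DESeq2 (-0.12) and all 9 libraries (-0.050), and without Nrp1-IP replicate 3 (-0.47), Input replicate 1 (-0.43) and Input replicate 3 (-0.65). CTNND1 between the receptors turned with library sizes without MAP1B (-0.033), as did CDH2 in DCC-IP over Input (0.23). CDH2 turned without DCC-IP replicate 3 between the receptors (0.86) and without Input replicate 3 in DCC-IP over Input (0.65), and AXIN1 there without DCC-IP replicate 2 (-0.17). PPP2R5C between the receptors turned with library sizes without MAP1B (-0.21) and CSNK1A1 in Nrp1-IP over Input without Input replicate 3 (-0.0088). With a library left out, CTNNA1 ran from -1.16 to 4.50 between the receptors and from -0.65 to 1.94 in Nrp1-IP over Input, APC from -0.40 to 0.95 and CDH2 from -2.73 to 0.86 between the receptors, CDH2 from -3.17 to 0.65 and AXIN1 from -0.17 to 1.14 in DCC-IP over Input, and CSNK1A1 from -0.0088 to 0.55 in Nrp1-IP over Input. None of these was past the threshold on either side, and the cause was not tested.

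Over all genes, 235 were called between the receptors, 484 without a filter, 705 with DESeq2, 369 with the replicate block and 443 with library sizes without MAP1B, and 74 to 346 with a library left out. For DCC-IP over Input, 310 were called, 1032 with DESeq2, 780 with all 9 libraries, 715 with the block, 73 with MAP1B removed and 696 with library sizes without MAP1B, and 0 to 250 with a library left out. For Nrp1-IP over Input, 323 were called, 882 without a filter, 966 with DESeq2, 125 with all 9 libraries, 556 with the block, 518 by library size and 520 without MAP1B, and 0 to 441 with a library left out. The counts of 0 arose in edgeR without DCC-IP replicate 1 (1554 genes at an unadjusted p under 0.05) and without Nrp1-IP replicate 1 (1061 genes). The split into higher and lower calls moved with the scaling, from 165 and 70 to 106 and 337 between the receptors and from 91 and 219 to 623 and 73 for DCC-IP over Input with library sizes without MAP1B, and from 126 and 197 to 351 and 167 for Nrp1-IP over Input by library size. With RLE size factors the splits were 191 and 45, 44 and 169, and 85 and 265.

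The comparisons with Nrp1-IP were not taken as paired, since each had a same-numbered pair with r under 0.1. The block left CTNNB1 called in both (-2.87 and -1.70). Between the receptors it raised the listed pathway genes called to 2 higher and 3 lower, beside 266 and 103 of 6439 genes, by adding TLE3 (1.33), TJP1 (-2.17) and TCF7L2 (-2.93). Between the receptors each library correlated best with its own number, while between each pulldown and Input not each did. Ratios of CTNNB1 to JUP moved by more than 1 SD (the mean of both groups' SDs) without DCC-IP replicate 1 and without Input replicate 2, with ranges of -7.51 to -4.37 and -7.06 to -4.11 with a library left out, and those to CTNNA2 without replicate 3 of DCC-IP or Input, from -2.25 to 1.09 and -1.32 to -0.37. The ratio to APC stayed between -3.44 and -2.62 between the receptors.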

Other observations

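NRP1, the mRNA of the precipitated receptor itself, had 198, 320 and 234 reads in Input, 55, 83 and 36 in Nrp1-IP and 0, 26 and 23 in DCC-IP. It was lower in Nrp1-IP than in Input (log2 fold change -2.49, SE 0.52, FDR = 0.0395 in edgeR), with an FDR over 0.05 in 5 of 6 fits with a library left out (up to 0.188) and in the fit of all 9 libraries (0.310). In DCC-IP over Input it stood at -4.39 with an FDR of 0.0980, and in the fit of all 9 libraries it passed (-4.63, FDR = 0.0290). Of the sympathetic markers, ISL1 rose over Input in both pulldowns, by 3.10 in DCC-IP and 2.04 in Nrp1-IP on the log2 scale (FDR = 0.00800 and 0.0119), and with a library left out it passed in 3 of 6 and 2 of 6 fits.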
